A study of Homo sapiens with 22 samples.

Results

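WT RPTEC lines that carried a lentivirus and grew in 10% serum were compared with WT RPTEC that carried none and were kept in 2% serum. Groups were taken from the labels, and 10 of the 22 samples of the series belong to the comparison. RPTEC are human renal proximal tubule epithelial cells immortalized with hTERT. The WT group had 2 samples, which were the untreated controls of a TGF-β experiment in medium with 2% serum. The transduced group had 8 samples, with 2 from each of 4 lines that were made by lentivirus carrying eGFP, OCT2, PRRX1 or SOX2 and selected as bulk cells with puromycin at 1.5 µg/mL. The eGFP line is also called the empty vector line in the labels. Labels of the 4 lines give regular medium, which per the protocol holds 10% serum. No sample here was untransduced and in 10% serum. Serum, lentivirus, puromycin and the expressed protein therefore changed together, and in a comparison of the lines with WT they cannot be told apart. The series was made to study loss of SETD2, the methyltransferase that places H3K36me3, in these cells. From it, 6 further samples are set beside the comparison because serum differed in them too. They are KO2, a SETD2 knockout clone of RPTEC in 2% serum (2 samples), and its Rescue1 and Rescue2 clones in 10% serum (4 samples). The Rescue clones were made from KO2 by a lentivirus that expresses SETD2 again, with blasticidin selection and picking of single colonies.

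Serum supplies growth factors and lipoproteins. In cultured epithelial cells, growth factors switch on immediate early genes within minutes through the ERK cascade, and this wave is normally followed by entry into the cell cycle. Cholesterol taken up from lipoproteins keeps the SREBP2 transcription factor inactive, so that genes of sterol synthesis are transcribed less when lipoprotein is plentiful.

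The deposited values were converted back to normalized counts (reads scaled to a common depth), which are the unit of every level below. A change is a difference of means of log2(normalized count + 1), which understates the change of genes with few counts. A gene was called when its adjusted p (limma, Benjamini-Hochberg over 14585 genes) was under 0.05 and its absolute log2 change was over 1. The labels do not say that the 2 samples of a group came from separate cultures, so the p-values measure only the spread between these samples, which may be technical. Each of the 10 samples held about 11000000 to 15700000 reads. The values of some genes may hold only part of their transcripts. Of 75 ribosomal protein genes 19 had a median under 500 normalized counts over the 10 samples, where the median of these 75 values was 7587. WASF2 and MTPN, which most cells express, were listed at 0 in both WT samples, and HSPA8 was at 804 and 768. Levels of different genes are therefore not compared.

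The expressed factors were checked first. PRRX1, a mesenchymal transcription factor, was at 394.7 and 404 in the PRRX1 line and at 0 in both WT samples. POU2F2, the gene that encodes OCT2, stood at 1251 and 1121 in the OCT2 line, against 39.3 and 237 in WT and 175 to 395 in the other lines. SOX2 was not analysed here. SETD2 was at 1852 and 2061 in WT and at 2702, 2890 and 3128 (lowest, median and highest) in the 8 transduced samples. The log2 difference of 0.56 (SE 0.05, limma adjusted p = 1.5e-06) was under the log2 limit, so SETD2 was not called. Of 35 proximal tubule markers 9 were at 0 in both WT samples, and LRP2, the megalin receptor that defines the proximal tubule, was at 0 in all 10 samples. The summed level of these markers was 9284 to 11203 in WT and 11002 to 12266 in the lines. Endothelial markers summed to 10.6 to 40.3 in WT and 4.84 to 38.5 in the lines, and leukocyte markers to 124 to 219 and 108 to 183. In bulk RNA, fewer cells of a type and less RNA per cell cannot be told apart.

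The 2 WT samples differed from each other more than those of any line. In 2347 genes whose mean was 1000 normalized counts or more, replicates were a median of 0.181 apart on the log2 scale in WT and 0.0644 to 0.115 in the lines. FN1 (fibronectin) was at 697564 in WT replicate 1 and 180968 in replicate 2, COL1A1 (type I collagen) at 11919 and 532, and TGFBI, a TGF-β-induced matrix protein, at 12164 and 896. In WT cells treated with TGF-β the same genes were at 1719613 and 1710471, 46598 and 45007, and 7935 and 8580. WT replicate 1 thus lay above replicate 2 in these TGF-β-responsive genes. Of the genes called between the lines and WT, 423 (22%) had WT replicates more than 1 apart on the log2 scale. For some of the named calls and counts that rest on 1 WT sample, the value without it is given beside them.

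Against WT, 1050 genes were higher in the transduced lines and 872 were lower, which is 7.2% and 5.98% of the genes tested. The median change over all genes was -0.00. In 2659 genes (18.2%) all 8 transduced samples lay above both WT samples and in 2836 (19.4%) all 8 lay below them. Each line gave a similar number when set against WT alone, with 1856 genes called for eGFP (12.7%), 1423 for OCT2 (9.76%), 1669 for PRRX1 (11.4%) and 1473 for SOX2 (10.1%). These 4 comparisons share the same WT samples. A set of 538 genes was called higher in every line (3.69%) and 375 lower in every line (2.57%). The lines were closer to each other than to WT, with a median absolute log2 difference of 0.185 to 0.232 between lines and 0.509 to 0.566 between a line and WT.

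Promoter sequences of members that moved together are shown because their shared motifs can be read in them. Windows run from 250 bases before to 50 after the annotated start in RefSeq on GRCh38.p14, and 35116 windows of 27305 genes were searched on both strands. The mitosis list matched 30 windows of 24 genes, the sterol list 22 of 17 and the inflammatory list 24 of 19. These are more genes than were called in each list, and a gene with several windows counts more than once. CCAAT, the box bound by NF-Y, stood in 25 mitosis windows (83.3%) and 18 sterol windows (81.8%), against 34.6% of all windows. TTTGAA, the core of the cell cycle homology region bound by the DREAM complex, was in 18 mitosis windows (60%) and 15.2% of all. TGANTCA, the site of AP-1, was in 4 inflammatory windows (16.7%) and 7.71% of all. A sterol element searched as TCACNCCAC was in 1 sterol window and 1.13% of all. These matches describe letters only and are no evidence that a factor binds. Capitals mark CCAAT (or ATTGG on the other strand) in CCNB1, CDC20 and MVK, also TTTGAA (or TTCAAA) in CDC20, and the AP-1 motif in CXCL8. The windows are chr5:69166900-69167199 (CCNB1), chr1:43358731-43359030 (CDC20), chr12:109573544-109573843 (MVK) and chr4:73740319-73740618 (CXCL8), all on the plus strand.
CCNB1: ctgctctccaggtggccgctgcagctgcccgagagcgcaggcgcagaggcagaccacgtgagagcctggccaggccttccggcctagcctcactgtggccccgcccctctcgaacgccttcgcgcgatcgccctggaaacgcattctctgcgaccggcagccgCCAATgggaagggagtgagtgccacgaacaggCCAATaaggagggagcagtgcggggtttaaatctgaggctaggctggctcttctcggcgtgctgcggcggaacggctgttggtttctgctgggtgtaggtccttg
CDC20: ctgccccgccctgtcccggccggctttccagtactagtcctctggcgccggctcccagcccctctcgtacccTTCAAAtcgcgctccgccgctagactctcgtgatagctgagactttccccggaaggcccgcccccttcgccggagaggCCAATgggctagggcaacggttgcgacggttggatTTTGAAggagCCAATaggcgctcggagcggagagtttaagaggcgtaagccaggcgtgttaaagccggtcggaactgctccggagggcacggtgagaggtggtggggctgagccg
MVK: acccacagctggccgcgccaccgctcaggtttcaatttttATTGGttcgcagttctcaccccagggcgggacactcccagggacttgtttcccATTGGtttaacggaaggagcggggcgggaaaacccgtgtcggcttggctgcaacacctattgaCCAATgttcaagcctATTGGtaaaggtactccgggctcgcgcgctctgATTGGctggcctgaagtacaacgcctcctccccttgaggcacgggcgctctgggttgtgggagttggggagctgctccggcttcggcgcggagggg
CXCL8: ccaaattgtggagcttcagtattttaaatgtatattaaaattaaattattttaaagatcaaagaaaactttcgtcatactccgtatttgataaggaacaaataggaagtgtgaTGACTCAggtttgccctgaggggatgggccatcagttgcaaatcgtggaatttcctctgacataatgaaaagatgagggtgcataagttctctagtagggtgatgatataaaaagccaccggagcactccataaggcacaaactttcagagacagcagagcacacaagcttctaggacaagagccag
CDC20, the activator of the ubiquitin ligase that ends mitosis, fell from 227 and 304 in WT to 30.8, 73.6 and 97.5 in the lines (-1.95), and the other 3 genes are described with their classes.

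Genes of the first wave after growth factor stimulation were higher in the lines. Among 17 immediate early genes tested, 11 rose and 0 fell, with a median change of 2.15 against -0.00 for all genes. FOSB, a subunit of the AP-1 transcription factor, was at 36.1 and 9.52 in WT and at 3955, 5901 and 6693 in the lines. The 8 transduced samples all lay far above both WT samples, by 8.15 (SE 0.51, limma adjusted p = 1.88e-08). FOS, its close relative, was at 3.47 and 1.83 in WT and at 1464, 1958 and 2215 in the lines (9.02, SE 0.90, limma adjusted p = 2.26e-06). ATF3, a stress-induced repressor, was at 150 and 30.2 in WT and at 1615, 2248 and 3182 in the lines (5.05). KLF6, an early zinc finger factor, rose from 533 and 493 to 2272, 2836 and 3189 (2.46, SE 0.10, limma adjusted p = 1.1e-10), again without overlap. MYC, the growth-promoting transcription factor, rose from 1058 and 1149 to 2091, 3016 and 3375 (1.36). JUN, the partner of FOS in AP-1, rose by 1.14 on the log2 scale. The other 6 were not called, among them FOSL1 (0.09), IER5 (0.03) and IER2 (-0.27). KLF4 was at 74.8 in WT replicate 1 and at 0 in replicate 2, and its call was lost without WT replicate 2 (2.14, limma adjusted p = 0.4286).

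Genes that report the activity of the ERK pathway moved in the same direction. Of 17 tested, 6 rose and 0 fell, with a median of 2.22. Many members have few counts, and with a pseudocount of 5 the median was 1.3. DUSP6, the phosphatase that switches ERK off again, was at 10.8 and 18.1 in WT and at 147, 234 and 305 in the lines (3.95, SE 0.32, limma adjusted p = 3.07e-07). The feedback inhibitor SPRY4 rose from 155 and 65.2 to 575, 791 and 860 (2.90), and PHLDA1, an ERK-induced gene, from 1262 and 1393 to 5548, 6279 and 6655 (2.22, SE 0.05, limma adjusted p = 2.5e-13). ETV1 and ETV4, ETS factors induced by ERK, rose by 4.53 and 3.31. In each of these 5 genes every transduced sample lay above both WT samples. ERRFI1, a feedback inhibitor of the EGF receptor, rose from 86.1 and 114 to 350, 448 and 581 (2.14). It was the 1 gene called of 9 tested on the EGF family list, so no ligand or receptor tested there was called. DUSP5 was at 0 in both WT samples and at 0 to 18.2 in the lines and was not called. CCND1 (cyclin D1), a later growth factor target, was at 6803 and 3852 in WT and 3944, 4223 and 4325 in the lines, a difference of -0.29 that was not called.

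The inflammatory list had the most calls in 1 direction among the lists that rose. Of 25 NF-κB and inflammatory genes, 15 rose and 2 fell, with a median of 1.86, and each of the 17 was called in every line. CXCL8, the neutrophil-attracting chemokine interleukin 8, was at 33.9 and 36.2 in WT. It was at 4817 and 4353 in the eGFP line, 3378 and 3190 in the OCT2 line, 4370 and 3853 in the PRRX1 line, and 4319 and 4157 in the SOX2 line. All 8 values lay far above WT, with a change of 6.80 (SE 0.12, limma adjusted p = 2.61e-14), or 112-fold. C3, the central complement component, rose from 2747 and 3286 to 54674, 66134 and 71378 (4.43, SE 0.10, limma adjusted p = 3.54e-13). CXCL2 rose from 21.4 and 26.1 to 1176, 1282 and 1343 (5.70), and CXCL1 from 5689 and 4502 to 21576, 23749 and 25908 (2.22), so that these related chemokines were both well separated from WT. The cytokine genes IL6 (2.42), IL1A (3.99) and IL1B (6.64) also rose. The inhibitor NFKBIA, itself an NF-κB target that encodes IκBα, rose from 3260 and 2791 to 8402, 9080 and 9523 (1.59), and the inhibitor TNFAIP3 rose by 1.39. CCL2, a monocyte chemokine, fell from 1456 and 681 to 277, 318 and 371 (-1.65), and IL32 fell by 1.25. NFKB1, NFKB2, RELB and TNFAIP2 were not called, with changes of 0.51, 0.69, -2.16 and 0.13. Of 11 leukocyte markers 4 were tested, and CD14, a monocyte antigen, was called higher, at 0 in both WT samples and 4.88 to 13.2 in the lines (3.07). Their sum was 108 to 183 in the lines and 124 to 219 in WT, and PTPRC, the pan-leukocyte antigen CD45, was at 0 in both WT samples and 0 to 0.996 in the lines. Their part in the inflammatory result was not tested.

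**Figure D1:**
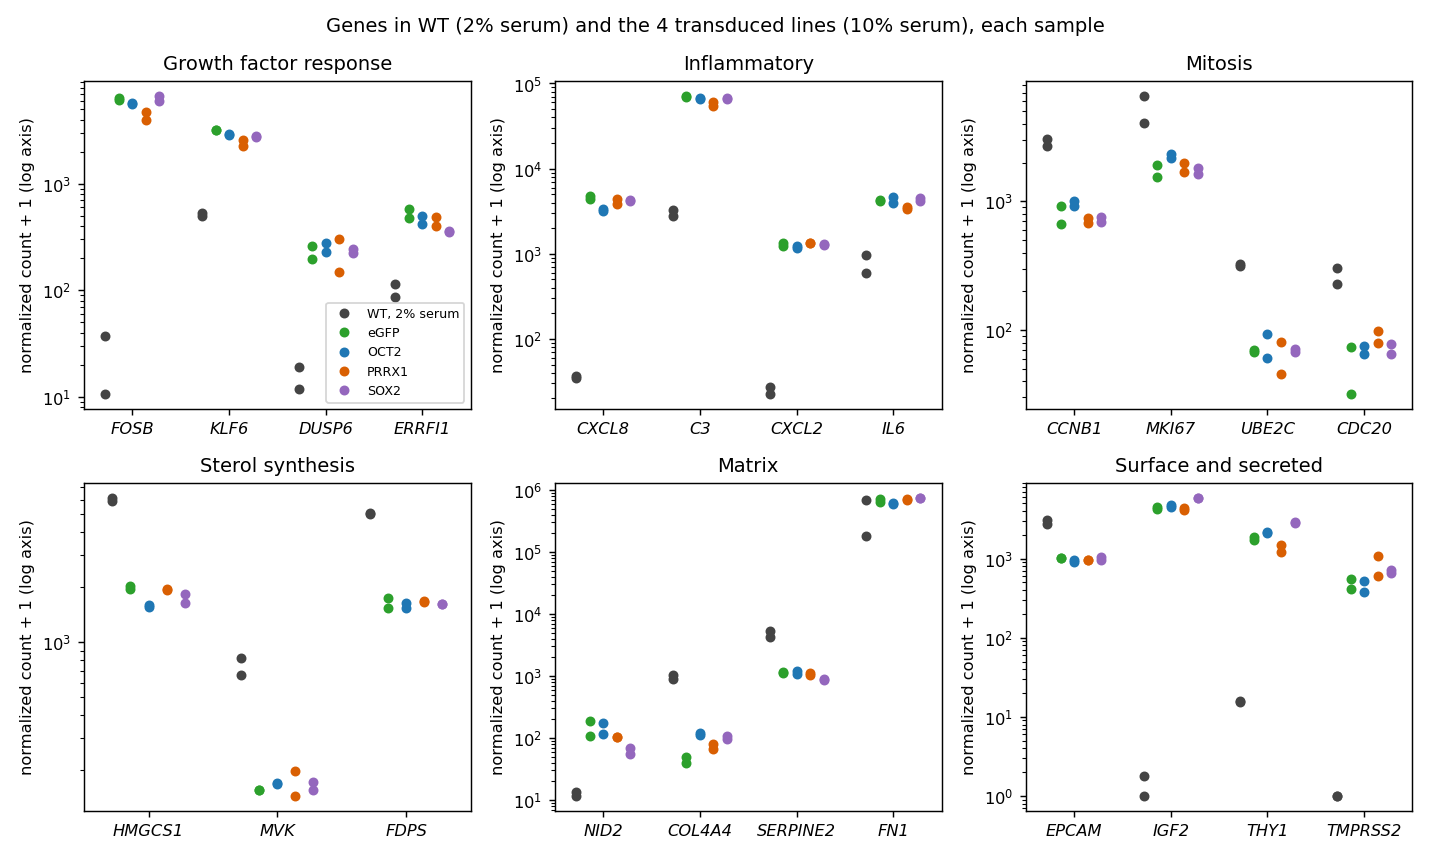
Normalized counts + 1 (log axes) of 23 genes in each of the 10 samples, in 6 panels of 3 or 4 genes; grey points are the 2 WT samples in 2% serum and coloured points the 2 samples of each transduced line in 10% serum. The 4 lines lie together and apart from WT in most genes, while for FN1 WT replicate 1 lies within the transduced samples and WT replicate 2 below them.

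In most of the plotted genes the difference between WT and the lines was not carried by 1 line. CXCL8 and FOSB were picked from genes called in every line, so for them this followed from that choice. The plot does not test it for genes outside those shown. For CXCL8 the lowest line was OCT2 and for FOSB it was PRRX1, and both still stood far above both WT samples.

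Genes of mitosis were lower in the lines. Of 29 tested, 0 rose and 17 fell, with a median of -1.31, and in 22 of the 29 all 8 transduced samples lay below both WT samples. CCNB1 encodes cyclin B1, which drives entry into mitosis. It was at 2712 and 3033 in WT and at 666, 749 and 1008 in the lines, without overlap (-1.86, SE 0.13, limma adjusted p = 6.22e-08), or 3.63-fold lower. FOXM1, the transcription factor of this gene class, fell from 1841 and 2657 to 625, 759 and 870 (-1.53), and the mitotic kinase CDK1 from 1748 and 2153 to 632, 729 and 837 (-1.40). UBE2C, which carries ubiquitin to mitotic cyclins, fell from 314 and 326 to 44.8, 68.0 and 91.9 (-2.23). MKI67, the gene of the Ki-67 proliferation antigen, was at 4088 and 6581 in WT and at 1556, 1865 and 2320 in the lines (-1.47, limma adjusted p = 0.01306). It was not called without WT replicate 2 (-1.13, limma adjusted p = 0.1779). The list is sensitive to the WT samples, since 17 members were called lower without WT replicate 1 and 9 without WT replicate 2, with medians of -1.55 and -1.16. CENPE (0.98), PLK1 (0.27) and TOP2A (0.82) were among the members above 0 and were not called.

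DNA replication genes lay below WT with fewer calls. Of 23 tested, 0 rose and 3 fell, and the median was -0.87. Without WT replicate 2, 1 fell, and without eGFP replicate 2, 5 fell. MCM5, a subunit of the replicative helicase, fell from 818 and 1410 to 281, 385 and 565 (-1.40, SE 0.21, limma adjusted p = 9.87e-05). RRM1 and TK1, which supply deoxynucleotides, fell by 2.59 and 1.93 on the log2 scale, and both lost the call when either WT sample was left out. The helicase subunit MCM7 (-0.85) did not reach the log2 limit, and MCM2 was at 7.21 and 3.99 in WT and 0, 63.7 and 80.8 in the lines (2.60, limma adjusted p = 0.1365). Among 13 CDK inhibitors and G1 cyclins, 1 rose and 1 fell. CDKN1C, the gene of the CDK inhibitor p57 (ENSG00000129757, chr11:2883213-2885775, minus strand, GRCh38), rose from 160 and 151 to 1324, 1594 and 1895 (3.35, SE 0.23, limma adjusted p = 5.42e-08), or 10.2-fold. CDKN2D, which encodes the inhibitor p19, fell from 198 and 204 to 41.4, 63.3 and 94.9 (-1.58). CDKN1A, the gene of p21, was at 8098 and 7359 in WT and 3355, 4159 and 4927 in the lines. Its change of -0.87 did not reach the log2 limit and was not called. GDF15, a stress-induced cytokine listed among p53 targets, rose from 401 and 447 to 2861, 4335 and 4518 (3.26), while TP53I3, BBC3 and PHLDA3 of the same list fell by 2.10, 1.34 and 1.34 on the log2 scale.

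Sterol synthesis genes were lower in the lines. Of 23 tested, 0 rose and 12 fell, with a median of -1.25. HMGCS1, an early enzyme of the cholesterol pathway, was at 6140 and 5903 in WT and at 1549, 1881 and 2016 in the lines. No transduced sample came near WT, and the change was -1.74 (SE 0.06, limma adjusted p = 4.18e-11), or 3.35-fold lower. MVK, mevalonate kinase, fell from 666 and 823 to 144, 162 and 197 (-2.17, SE 0.18), and FDPS, which makes farnesyl pyrophosphate, from 5008 and 5033 to 1531, 1622 and 1750 (-1.63). DHCR7 and LSS, later enzymes of the pathway, fell by 1.32 and 1.33 on the log2 scale. SREBF2, which encodes SREBP2 itself, was at 269 and 220 in WT and 380, 476 and 600 in the lines (0.97, not called).

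**Figure D2:**
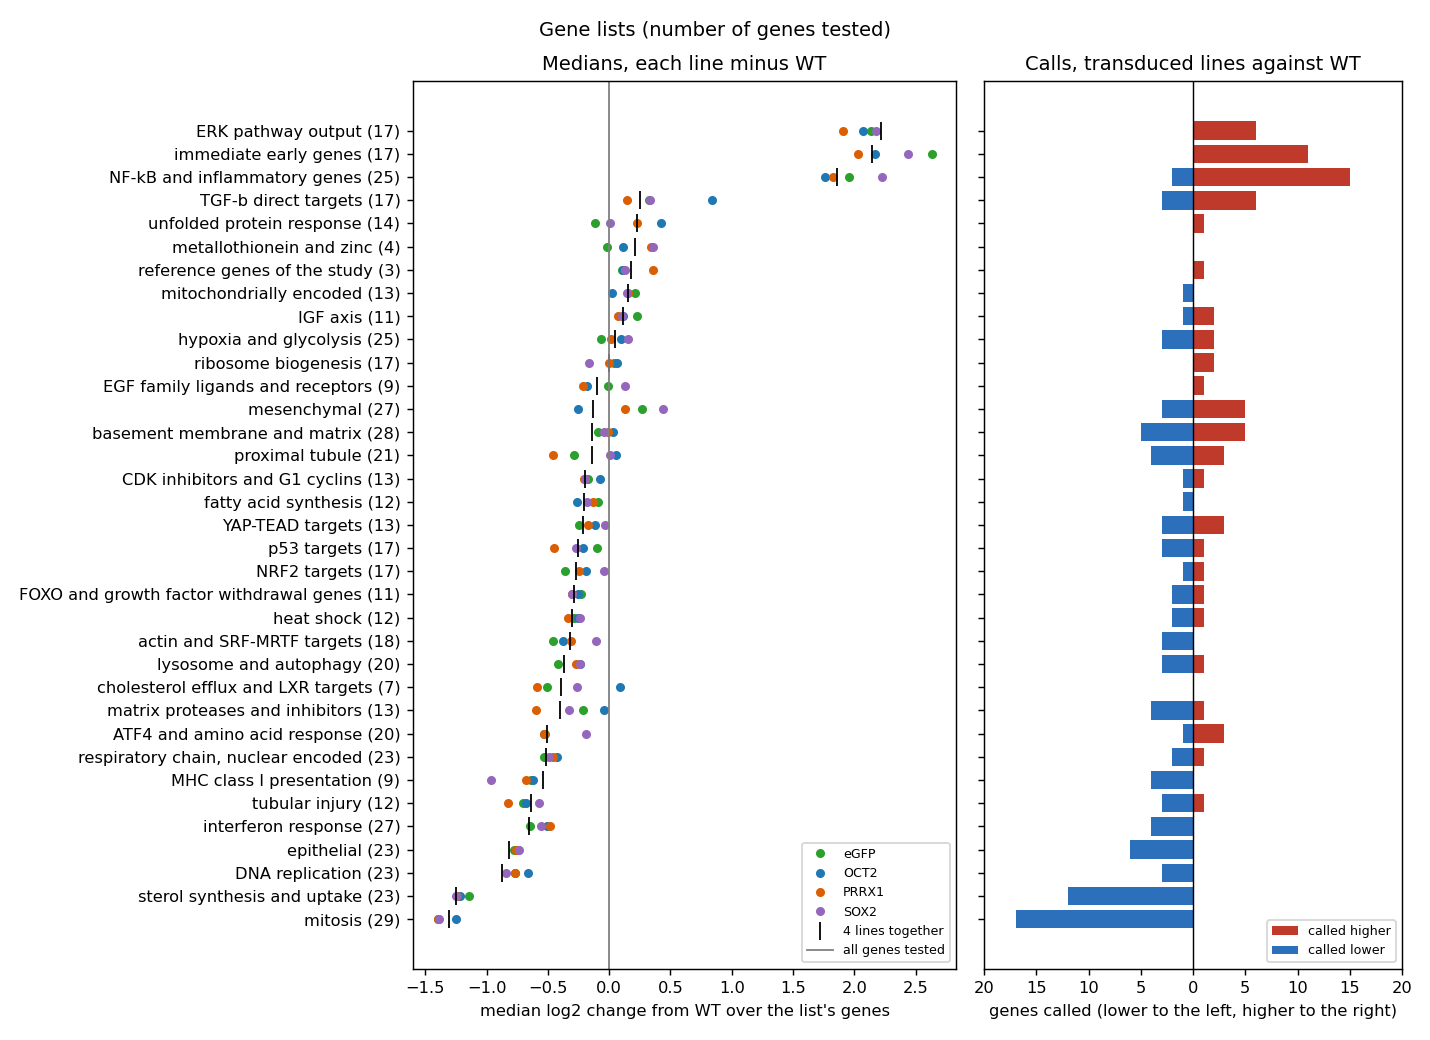
Left, the median log2 change from WT over the tested genes of each of 35 lists, one point for each line and a bar for the 4 lines together; right, the number of genes in each list called lower (to the left) and higher (to the right). ERK output, immediate early and inflammatory genes have medians from 1.86 to 2.22 and mitosis and sterol genes medians of -1.31 and -1.25, with the 4 lines close together.

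In the plot of lists most medians lay near that of all genes, and the 3 lists at the top and the 2 at the bottom stood apart in all 4 lines.

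The largest single changes were in genes of several kinds. IGF2, the fetal growth factor (ENSG00000167244, chr11:2129112-2158391, minus strand, GRCh38), was at 0 and 0.799 in WT and at 4075, 4483 and 5898 in the lines (11.79, SE 0.32, limma adjusted p = 1.56e-12). TMPRSS2, a surface serine protease, was listed at 0 in both WT samples and at 383 to 1065 in the lines. HES1, the Notch target repressor, rose from 2.63 and 2.63 to 795, 949 and 1134 (8.04). CD69, a lymphocyte activation antigen, rose from 18.5 and 3.64 to 1513, 1976 and 2528 (7.74). CHRD, the BMP antagonist chordin, and FLI1, an ETS factor, were listed at 0 in both WT samples and reached 140 to 247 and 154 to 227. These genes were picked from those called in every line, so by that choice no transduced sample lay within the WT values. WASF2 and MTPN were also listed at 0 in WT, with 53.2 to 266 and 67.5 to 169 in the lines, and as genes that most cells use they are among those whose values may be partial.

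Among the genes that fell most, MMP9, the gelatinase B protease, was at 1126 and 722 in WT and at 0 to 2.63 in the lines (-9.18, SE 0.66, limma adjusted p = 7.27e-08). PTH1R, the parathyroid hormone receptor of the proximal tubule, fell from 410 and 532 to 0.652, 4.40 and 13.7 (-6.44). CDH3 (P-cadherin) fell from 456 and 484 to 0, 9.34 and 24.5 (-6.08), and NPNT, an integrin ligand of the kidney basement membrane, from 512 and 595 to 7.59, 18.8 and 30.4 (-5.01). TRAF1, an adaptor of TNF receptors and itself an NF-κB target, fell from 812 and 624 to 13.9, 29.7 and 34.2 (-4.76), against the direction of most inflammatory genes. HPGD, which degrades prostaglandins, FGFR2, the receptor of epithelial FGFs, and FABP3, a fatty acid carrier, fell (log2 changes of -4.36, -4.06 and -3.75). CGB8, a chorionic gonadotropin subunit with near-identical copies, was at 339 and 55.6 in WT and at 0 to 3.28 in the lines, and its reads may be shared with those copies.

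Matrix and epithelial genes did not move as 1 class. Of 28 basement membrane and matrix genes, 5 rose and 5 fell, and 3 rose without OCT2, PRRX1 or SOX2 replicate 1. COL4A3 and COL4A4, partner chains of type IV collagen, fell by 5.08 and 3.59, from 137 and 131 to 0, 3.26 and 14.0 and from 878 and 1025 to 39.1, 87.0 and 119. NID2 (nidogen 2) and COL6A3 rose by 3.10 and 2.52. Several members turned on the WT samples. COL4A1 and TNC changed by 1.39 and 1.14 without WT replicate 1, and by -4.16 and -1.14 without WT replicate 2. HSPG2 changed by -1.21 and -3.13 without WT replicates 1 and 2. Of 13 matrix proteases and inhibitors 1 rose (2 without WT replicate 1) and 4 fell, with SERPINE2 at 5270 and 4299 in WT and 853, 1095 and 1216 in the lines (-2.18) and the plasminogen activator PLAT rising from 300.4 and 395 to 1281, 1471 and 1688 (2.11).

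Of 23 epithelial genes 0 rose and 6 fell, with a median of -0.82. ESRP2 and CRB3, called lower at -1.12 and -1.05, changed by -0.84 and -0.69 without WT replicate 2, under the log2 limit. EPCAM, the epithelial adhesion molecule, fell from 3050 and 2764 to 904, 968 and 1037 (-1.57, SE 0.09, limma adjusted p = 9.29e-09), without overlap. DSP (desmoplakin) fell by 1.32 and MUC1 by 2.75 on the log2 scale, the latter not called without WT replicate 2 (limma adjusted p = 0.06887). CDH1 (E-cadherin) was at 25.5 and 47.5 in WT and at 0, 39.6 and 58.0 in the lines, and was not called. Of 27 mesenchymal genes 5 rose and 3 fell, with a median of -0.13. SNAI2 (Slug) rose from 26.8 and 23.5 to 337, 423 and 496 (4.03, SE 0.32, limma adjusted p = 1.92e-07), ZEB2 from 318 and 330 to 1562, 1683 and 1886 (2.39), and ZEB1 by 1.13. All 3 encode repressors of epithelial genes. THY1, a surface antigen of fibroblasts, rose from 14.3 and 15 to 1222, 1997 and 2936 (6.98), and the proteoglycan DCN rose by 2.43. COL1A1 was called lower (-2.22, at 428 to 781 in the lines), with a change of 0.02 without WT replicate 1, where it was not called. Of the 10 fibroblast markers, which include these 3 genes, 9 were tested, 2 rose and 1 fell. Their summed level was 846 in WT replicate 2, 12453 in WT replicate 1, where COL1A1 was 11919 of it, and 3686 to 6048 in the lines, and its part in the result was not tested. The mesenchymal list turned on WT replicate 1: without it 10 members rose and 1 fell (median 0.82), and without WT replicate 2, 5 rose and 6 fell (median -0.44). FN1 was at 605359, 708394 and 752935 in the lines, a change of 0.95 that was not called, with 1.92 without WT replicate 1 and -0.02 without WT replicate 2. MMP2 behaved likewise, at 3064 and 599 in WT and 1848, 2275 and 2832 in the lines (0.75, and 1.92 and -0.43 without WT replicates 1 and 2). TGFBI was called lower (-1.95), but its change was -0.07 without WT replicate 1, where it was not called. VIM (vimentin) was not called (-0.39).

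Of 17 direct TGF-β targets 6 rose and 3 fell. BHLHE40, a clock-related repressor, rose from 4474 and 3850 to 13611, 16355 and 17688 (1.95), and the inhibitor of differentiation genes ID1 and ID3 rose by 1.54 and 3.01, the former not called without WT replicate 1 (limma adjusted p = 0.05315). PMEPA1, a feedback inhibitor of TGF-β signalling, fell from 2656 and 1513 to 287, 816 and 940 (-1.72). Without WT replicate 1, 5 rose and 2 fell (median 1.04), against a median of 0.25 with both WT samples.

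Antigen presentation and interferon genes were lower where they moved. Of 9 genes of MHC class I presentation 0 rose and 4 fell, with a median of -0.54. The median was -1.15 with 5 called lower without WT replicate 2, and -0.92 without SOX2 replicate 1. HLA-C fell from 20094 and 17770 to 7574, 9141 and 9473 (-1.09, SE 0.08, limma adjusted p = 7.48e-08), and TAPBP (tapasin), which loads peptides onto class I molecules, from 2911 and 3951 to 1167, 1307 and 1497 (-1.37). HLA genes share near-identical sequence, so reads may be split between them. Of 27 interferon response genes 0 rose and 4 fell (median -0.66), among them IFIT2, which fell from 389 and 426 to 93.3, 124 and 185 (-1.68). ISG15 (-0.79) was not called.

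Proximal tubule genes were split, with 3 of 21 higher and 4 lower. Without WT replicate 1, 2 rose and 2 fell, and without SOX2 replicate 2 or eGFP replicate 2, 1 rose. SLC34A2, a phosphate transporter, was at 101 and 96.9 in WT and at 0 to 1.13 in the lines (-6.50). PDZK1, a scaffold of brush border transporters, fell from 3256 and 3181 to 1449, 1535 and 1719 (-1.05). PAX8, a transcription factor of the kidney lineage, rose from 2322 and 3743 to 5512, 6000 and 6286, just past the log2 limit (0.66 without WT replicate 1, where it was not called). HAVCR1 (KIM-1), the marker of tubular injury, fell from 1169 and 1869 to 201, 302 and 351 (-2.31), but was not called without WT replicate 2 (-1.98, limma adjusted p = 0.1382), and LCN2 (NGAL), another such marker, was at 0 and 0.940 in WT and 66.7 to 147 in the lines.

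Few genes were called between the lines. Against the eGFP line, 5 genes were called in the OCT2 line (0.0343%), 6 in the PRRX1 line (0.0411%) and 3 in the SOX2 line (0.0206%), where 397, 387 and 391 passed the same log2 limit at an unadjusted p under 0.05. These 3 comparisons share the eGFP samples, and without eGFP replicate 2 the counts became 37, 41 and 36. PRRX1 itself was among the 6. POU2F2 was not among the 5 of the OCT2 line, although it was at 1251 and 1121 there and at 279 and 357 in the eGFP line. A gene that was not called may therefore still differ between the lines. P3H3, a collagen prolyl hydroxylase, was low in the eGFP line, at 46.7 and 23.5, against 485 and 513 in the OCT2 line, 425 and 383 in the PRRX1 line, 380 and 359 in the SOX2 line, and 419 and 360 in WT. COL27A1, a fibrillar collagen, was at 256 and 261 in the eGFP line and at 1049 and 1075 in the SOX2 line (2.03, SE 0.27, limma adjusted p = 0.01016), and WT had 371 and 225.

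A second comparison in the series also set 10% against 2% serum, that of the Rescue clones with KO2. Lentivirus, SETD2, blasticidin selection and cloning changed in that comparison as well. In it 1143 genes were higher (7.84%) and 1408 lower (9.65%). It shares no sample with the comparison of the lines with WT. Of the 1922 genes called in the lines 658 were called in both, with 260 in the same direction (13.5% of those called in the lines and 10.2% of those called in the Rescue clones) and 398 in opposite directions (20.7% and 15.6%). The difference of the 2 changes was itself called for 1714 genes that were more positive in the lines (11.8%) and 1460 that were more negative (10%). Scaling each library to the same total moved the median of all genes from -0.03 to 0.26 in the Rescue comparison and from 0.05 to -0.27 in the difference, which changed the splits to 1856 higher and 1035 lower, and to 1267 and 2197.

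Immediate early genes were higher in both comparisons, in which lentivirus and drug selection changed along with serum. In the Rescue clones 8 of 17 rose and 0 fell, with a median of 1.28, and FOSB was at 19.9 and 10.9 in KO2 and 41.6 to 176 in the Rescue clones (2.71), HES1 at 0 in both KO2 samples and 208 to 337 in the Rescue clones. CD69 rose from 249 and 224 to 387 to 783 (1.21). The FOS level stayed low there, at 0 and 6.02 in KO2 and 0 to 22.4 in the Rescue clones. Ranked by their change in the lines, COL4A3, GLB1L2 and FGFR2 came first among the genes called lower in both comparisons whose mean in WT or the lines was at least 100.

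Cell cycle, sterol and inflammatory genes went in opposite directions in the 2 comparisons. In the Rescue clones 25 of 29 mitosis genes rose and 0 fell (median 2.24), 15 of 23 DNA replication genes rose and 0 fell (median 2.52), and 12 of 23 sterol genes rose and 0 fell (median 1.09). The difference of the changes was called as more negative in the lines for 25 mitosis genes, 15 DNA replication genes and 19 sterol genes, and as more positive for 0, 0 and 1. Among inflammatory genes it was called as more positive for 18 and as more negative for 2. CCNB1 was at 495 and 415 in KO2 and at 1695 to 2045 in the Rescue clones, and HMGCS1 at 1183 and 1218 and at 3051 to 4683. WT in 2% serum, at 2712 and 3033 for CCNB1 and 6140 and 5903 for HMGCS1, thus lay above KO2 in the same serum and above the Rescue clones and the lines in 10% serum. Of the inflammatory genes 1 rose and 16 fell in the Rescue clones (median -1.76), where CXCL8 was at 1133 and 976 in KO2 and 204 to 537 in the Rescue clones. ERK output genes had 1 higher and 4 lower there, with a median of 0.00. THY1 was at 1136 and 1135 in KO2 and 5.45 to 12.5 in the Rescue clones, and with KCND3 (14.81) and LRRC15 (14.18) its difference of 13.66 was among the 3 largest in genes with a group mean of at least 100. MMP9 (-9.49), CGB8 (-10.16) and PFDN6 (-13.51) were the most negative.

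**Figure D3:**
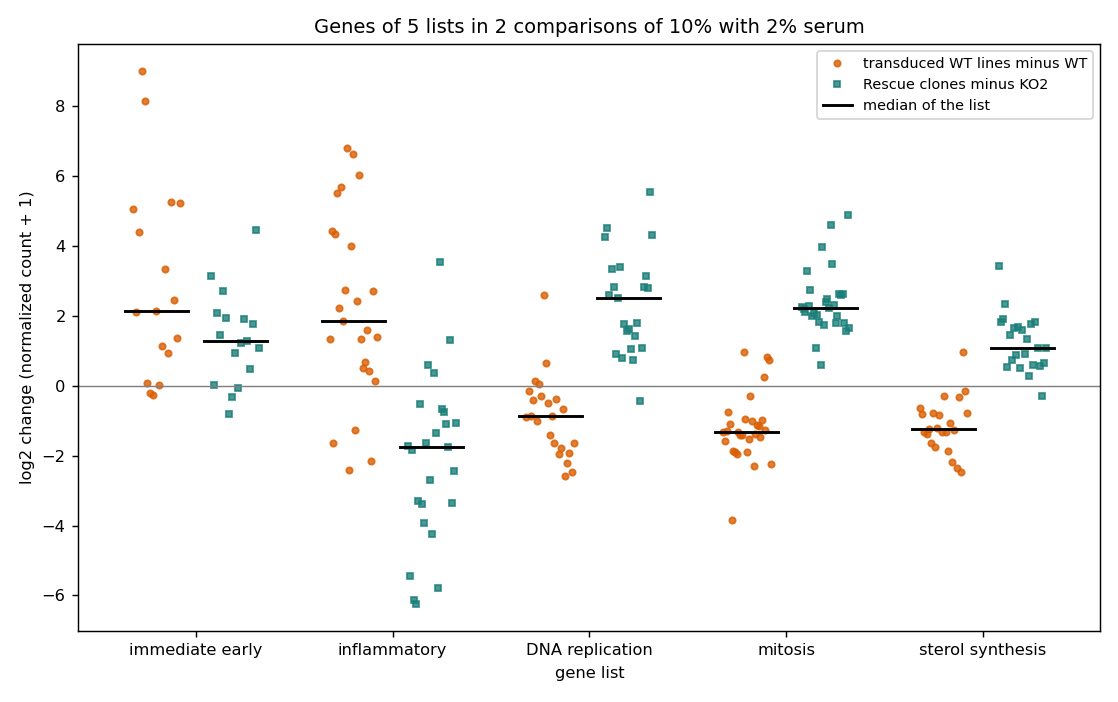
The log2 change of each tested gene of 5 lists in the transduced lines against WT (circles) and in the Rescue clones against KO2 (squares), with black bars at the median of each list; both comparisons set 10% against 2% serum. Immediate early genes lie mostly above 0 in both, while inflammatory, DNA replication, mitosis and sterol genes have medians of opposite sign.

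In the plot of both comparisons the 2 medians of the mitosis list, -1.31 and 2.24, lie on opposite sides of 0, and so do those of the other lists except the immediate early genes. Lentiviral transduction and drug selection changed with serum in both comparisons, and SETD2 and cloning changed as well in the Rescue comparison. Within these 2 comparisons serum cannot be told apart from these. The series also holds samples labelled KO2_Rescue in 2% serum, which were not compared here.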

How the data were processed

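RNA-seq of RPTEC was measured in 22 samples, of which 10 enter this comparison and 6 are set beside it. The authors quantified 150-base paired reads with salmon 1.9.0 on Ensembl release 94 cDNA of GRCh38, and the submitters' processing notes name DESeq2 1.26.0. The authors deposited log2 values for 36859 genes, from 11.32 to 21.28. How they were transformed is not given in the sources used here. All samples share the lowest value and low values lie near multiples of 1 step per sample, which is the form of a variance-stabilizing transformation. It was inverted here to obtain normalized counts. Whole reads could not be recovered, and the number of reads per sample (total divided by step) is approximate.

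Groups came from the labels, and 0 columns were left unmapped. limma 3.58.1 in R 4.3.3 (moderated test with a variance trend) was fitted on log2(normalized count + 1) over all 22 samples, with 1 mean for each group and no other term. The 14585 genes that reached 10 normalized counts in 2 or more samples were tested. The fit was tested on simulated data first. Transduced lines enter as the mean of 4 line means, and Rescue as the mean of 2 clones. Same-numbered replicates did not deviate together (r of -0.03 to 0.05 over 10 pairs), so numbers were not taken as pairs. In none of the 5 groups were the 2 replicates identical.

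The samples and gene lists were chosen with earlier results of these data known. The text names SETD2, POU2F2 and PRRX1, the 12 largest rises and 12 largest falls among protein-coding genes called in every line with a group mean of at least 100 normalized counts, up to 4 called members of each list with the largest change, a fixed set of class genes, and the 3 largest shared and differing changes in the Rescue comparison. Further list members were named after their values were seen, and some genes that the rule chose are not reported here. Gene positions are from GENCODE release 44 and promoter windows from RefSeq on GRCh38.p14. Alternatives were pseudocounts of 0.5 and 5, a mean of at least 50 normalized counts, no filter, the same total in every sample, quantile normalization, the deposited scale, only the groups compared, a replicate block, single lines, and each replicate left out. Precision is limited by 2 samples a group. Genes without a row or below the filter were not analysed here.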

Additional observations from a re-analysis of the deposited data

Results flagged for a closer look

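In 16 cases among 132 genes, 1 of the 8 transduced samples lay far from the other 7 in normalized counts, where chance flags about 1 in 20 groups. Samples lay low for F3 (413), GDF15 (2861), DDIT3 (1158) and MCM2 (0) in PRRX1 replicate 2, TEAD1 (488) and CDC20 (30.8) in eGFP replicate 1, CCNA2 (0) and GPNMB (298) in eGFP replicate 2, GATM (9.64) in PRRX1 replicate 1 and HAVCR1 (201) in SOX2 replicate 1. Samples lay high for CGB8 (3.28) and IFI35 (311) in SOX2 replicate 2, MUC1 (218) in PRRX1 replicate 2, DSP (872) in eGFP replicate 2, TIMP3 (0.919) in PRRX1 replicate 1, and SLC34A2 (1.13) in OCT2 replicate 2. For CGB8, TIMP3 and SLC34A2 the other 7 samples were at 0.

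The factor lines differed from the eGFP line in a few genes (limma, adjusted p under 0.05). P3H3 differed by 3.87 on the log2 scale in OCT2, 3.57 in PRRX1 and 3.44 in SOX2, and it was the eGFP line that stood apart from WT. SPSB1, a substrate adaptor of a ubiquitin ligase, was at 0 in both eGFP and both WT samples, with differences of 5.99 in OCT2 and 4.94 in PRRX1. SLC26A9, a chloride transporter, was at 0 in the eGFP line and 8.01 and 7.52 in WT (4.34 and 4.48 in the same lines). THBS2, a matrix glycoprotein, differed by 1.35 and 1.45, PRRX1 by 8.65 in its own line, and COL27A1 by 2.03 in SOX2. ENSG00000279389 was at 37.9 and 31.9 in the eGFP line and 0 in the other lines and WT (-5.16 in each of the 3).

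The change from WT to the lines and the change from KO2 to the Rescue clones differed for 3174 genes. The largest were KCND3 (14.81), a potassium channel, LRRC15 (14.18), THY1 (13.66), PFDN6 (-13.51), CGB8 (-10.16) and MMP9 (-9.49). Both changes come from samples that also differ in transduction, selection or SETD2, and which of these matters was not tested.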

How the results depend on the processing

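The 1922 genes called between the lines and WT became 31 on the deposited log2 scale, where differences of low counts are compressed, and 1617 to 1950 when a replicate was left out. Differences of moderate counts are compressed on that scale too. There the eGFP, OCT2, PRRX1 and SOX2 lines gave 36, 31, 26 and 30 genes against WT, and 22 were called in every line. The factor lines gave 0, 0 and 0 against eGFP, the Rescue comparison 62 and the difference 153. With only the groups compared in the fit, hence fewer residual degrees of freedom, the 4 lines gave 715, 677, 594 and 737, every line 310, and the factor lines 0, 0 and 0. Leaving out a replicate gave 1286 to 1729, 1067 to 1325, 1199 to 1542 and 1091 to 1345 for the 4 lines, 742 to 893 in every line, 1914 to 2435 for Rescue and 2731 to 3156 for the difference. The factor counts of 5 (OCT2), 6 (PRRX1) and 3 (SOX2) were unstable. They were 3 to 37, 7 to 41 and 7 to 36 without a replicate, with the highest without eGFP replicate 2; 14, 18 and 16 with no filter; 3 (OCT2) and 3 (PRRX1) with a mean of at least 50; 3 for OCT2 with a pseudocount of 5; 7 for SOX2 with 0.5 and 6 with the same total; and 397, 387 and 391 at an unadjusted p. The cause was not tested. Replicate numbers do not pair the samples, and with the replicate block the count was 1899 for the lines and 4, 6 and 3 for the factors. Of 3404 values of the 137 genes chosen by the rule, 3152 kept direction and side of the threshold, 246 lost the call, 6 gained it and 0 reversed. Outside the deposited scale, mitosis genes called lower ranged over settings from 9 to 18, sterol genes from 11 to 13, inflammatory genes called higher from 15 to 16, and mesenchymal genes from 5 to 10. On that scale the 4 counts were 0, 0, 3 and 1. FASN, CYC1 and GATM had few counts, where depth limits what can be said.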

Other observations

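Other classes moved in single members, and their counts stand beside 7.2% called higher and 5.98% called lower among all genes tested. Of 25 hypoxia and glycolysis genes 2 rose (1 without WT replicate 2) and 3 fell in the lines. ADM, the vasodilator peptide adrenomedullin, was at 9.40 and 11.2 in WT and 171, 303 and 392 in the lines (4.68, SE 0.45, limma adjusted p = 1.7e-06), while SLC2A1, the glucose transporter GLUT1, fell from 13028 and 14335 to 4051, 4470 and 4981 (-1.60, SE 0.06, limma adjusted p = 1.32e-10). Neither gene overlapped between WT and the lines. Of 20 ATF4 and amino acid response genes 3 rose and 1 fell, although the median was -0.51. DDIT3 (CHOP) rose from 260 and 250 to 1158, 1573 and 1863 (2.62) and DDIT4, an mTORC1 inhibitor, by 3.27, while ASNS, asparagine synthetase, fell by 1.09 on the log2 scale. Without WT replicate 2 ASNS was under the log2 limit (-0.94), and 0 members fell.

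Of 18 actin and SRF-MRTF target genes 0 rose (1 without WT replicate 2) and 3 fell, among them FLNA (filamin A), from 37703 and 28857 to 11083, 15042 and 16694 (-1.22). Of 13 YAP-TEAD targets 3 rose and 3 fell. Without WT replicate 1, TEAD1 and ANKRD1 of these changed by 0.57 and -0.82. Without WT replicate 2, NT5E and AXL of these changed by 0.71 and -0.58. Each of these values is under the log2 limit. Tissue factor, F3, rose from 237 and 89.0 to 413, 717 and 815 (2.22), and AJUBA fell by 1.78. Nuclear genes of the respiratory chain lay below WT by a median of -0.51. In 13 of the 23 all 8 transduced samples lay below both WT samples, against 19.4% of all genes tested. NDUFA4 was called higher (1.11) and SDHA and CYC1 lower (-1.14 and -1.03), but none of the 3 was called without WT replicate 1 (0.78, -0.79 and -0.57), where UQCRC1 (1.02) and COX5B (-1.06) were called in their place. The mitochondrially encoded genes took 8.28% and 8.65% of the counts in WT and 9.11% to 9.95% in the lines. Of 20 lysosome and autophagy genes 1 rose and 3 fell, against 0 and 1 without WT replicate 1, with GPNMB, a lysosomal glycoprotein, at 1321 and 1292 in WT and 298, 389 and 427 in the lines (-1.79).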
